A study of Homo sapiens with 22 samples.

Results

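The mitochondrial genome of human cells is a circle of 16569 bases (chrM in GRCh38/hg38) that carries 37 genes. All 37 were studied here, chosen as the gene names that begin with MT- among the 59087 names of each count table. They are 13 mRNAs, 2 rRNAs and 22 tRNAs, and the choice used their names alone. RNA-Seq was performed on HUDEP-2 cells, human erythroid progenitors made immortal, which are taken from expansion medium at D0 and mature in differentiation medium, here until D6. One experiment compared 3 H2A.X KO with 2 WT libraries at each day and the other 3 BAZ1B KO with 3 WT libraries at each day, 22 libraries in all. KO subclones were grown from single cells after transduction with 2 lentiviral CRISPR/Cas9 vectors, with homozygous deletions of H2A.X, a histone variant of the DNA damage response, or of the start of BAZ1B, a kinase and chromatin remodeler subunit. WT subclones went through the procedures of the KO lines, according to the study. P-values measure the spread between libraries from subclones of 1 cell line. D0 and D6 libraries of a subclone entered the tests as independent, except where a replicate block is named.

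Mitochondrial DNA is transcribed by the polymerase POLRMT with TFAM and TFB2M into long RNAs that span nearly a whole strand. The tRNAs that lie between the coding genes are cut out by RNase P and ELAC2, which frees the rRNAs and mRNAs, and most mRNAs then receive a short poly(A) tail from MTPAP. The mRNAs encode core subunits of respiratory complexes I, III and IV and of the ATP synthase, complex V. Erythroid cells build heme partly inside mitochondria and remove the organelles at the end of maturation. MT-ND6 is the only mRNA encoded on the light strand, with 8 of the tRNAs, and all other members lie on the heavy strand.

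The genes are packed so tightly that some overlap, and 2 of these overlaps join members described below. MT-ATP8 and MT-ATP6 are read from 1 RNA and share 46 bases at chrM:8527-8572, where capitals mark the start codon of MT-ATP6 and the stop codon of MT-ATP8. MT-ND4L and MT-ND4 are also read from 1 RNA, and at chrM:10749-10778 capitals mark the 7 bases that both genes use. All sequences are from the GRCh38 reference, 5′ to 3′ on the coding strand.
MT-ATP8 and MT-ATP6: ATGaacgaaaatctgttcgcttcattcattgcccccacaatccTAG
MT-ND4L and MT-ND4: aacctactccaATGCTAAaactaatcgtcc
In 6 of the 13 mRNAs the annotated gene stops inside a codon, and the poly(A) tail completes the stop codon. MT-CYB at chrM:15864-15887 and MT-ND1 at chrM:4239-4262 are of this kind, and MT-ND6 at chrM:14149-14172 on the minus strand ends in a whole codon. Capitals mark the bases of the last codon, complete or not.
MT-CYB: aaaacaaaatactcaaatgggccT
MT-ND1: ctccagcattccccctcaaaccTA
MT-ND6: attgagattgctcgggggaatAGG
The light-strand tRNA MT-TQ, chrM:4329-4400 on the minus strand, overlaps MT-TI on the other strand by 3 bases, marked in capitals, and its reads were fewer in H2A.X KO than in WT.
MT-TQ: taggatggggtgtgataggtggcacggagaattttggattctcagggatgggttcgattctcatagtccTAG

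Libraries held 11910141 to 21013004 counts in the H2A.X experiment and 33199408 to 41273244 in the BAZ1B experiment. CPM below are counts scaled to the TMM effective library size. H2AFX, the older symbol of the H2A.X gene, was 35.7 CPM ± 14.5 (SD, n = 3) in H2A.X KO and 100.9 CPM ± 15.9 (SD, n = 2) in WT at D0, a log2 fold change of -1.50 (edgeR adjusted p = 0.0304). BAZ1B was 197.4 CPM ± 23.9 (n = 3) in BAZ1B KO and 261.2 CPM ± 2.8 (n = 3) in WT at D0 (edgeR log2 fold change -0.40, adjusted p = 0.00415). Both were also lower in KO at D6, and the reads that remain can come from undeleted parts of the genes. The 13 erythroid markers summed to between 6604.1 and 73069.2 CPM, while 7 lymphocyte and 6 monocyte markers summed to at most 1.43 and 6.3 CPM. Column names of 5 of the 6 H2A.X KO libraries, all except KO replicate 3 at D6, carry the word Redo, and no WT column does, so that at D0 this mark and the genotype cannot be told apart.

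All 13 mRNAs and both rRNAs were detected in all 22 libraries, and the tRNAs were nearly absent. Between 75 and 217 reads per library fell on the 22 tRNAs in the H2A.X experiment and between 109 and 251 in the BAZ1B experiment. MT-TT, the tRNA for threonine next to MT-CYB, held 45.8% to 86.1% of them in the H2A.X experiment and 38.7% to 60.2% in the BAZ1B experiment. MT-TN, MT-TC, MT-TK, MT-TR and MT-TH had 0 reads in every library, which allows up to 3 reads, or 0.14 to 0.306 CPM in single libraries of the H2A.X experiment and 0.0688 to 0.0927 CPM in those of the BAZ1B experiment. These limits cover counting error only. Libraries were made from RNA bound to oligo-dT, and mature tRNAs have no poly(A) tail. The filter on low counts kept 18 members in the H2A.X experiment, among them the tRNAs MT-TI, MT-TQ and MT-TT, and 21 in the BAZ1B experiment, where MT-TW, MT-TD and MT-TP also passed.

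Per kilobase of gene, the subunits of complex IV, cytochrome c oxidase, had the highest mean levels of the mRNAs in both genotypes of the BAZ1B experiment at both days. In its WT at D0, MT-CO3 was at 7022.0 CPM per kb ± 1217.0, MT-CO2 at 5749 ± 958.7 and MT-CO1 at 4853 ± 838.4 (SD, n = 3). MT-ATP6 of complex V followed at 3971 ± 659.6 CPM per kb, MT-ND4 of complex I at 3594 ± 556.4, and MT-CYB, the only mitochondrial subunit of complex III, at 2464 ± 383.7. From MT-CO3 down to MT-ND4 the ranges of neighbours in this order overlapped between libraries, while MT-ND4 and MT-CYB did not overlap. A group of complex I and V genes, MT-ND3, MT-ND4L, MT-ND5, MT-ND1 and MT-ATP8, lay between 1568 and 1959 CPM per kb, and MT-ND2 at 1066 ± 185.6, where only MT-ND2 did not overlap with its neighbour. MT-ND6 was far below at 19.9 ± 3.48 CPM per kb. The rRNA of the large ribosomal subunit, MT-RNR2, was at 2456 ± 395.5 CPM per kb and that of the small subunit, MT-RNR1, at 204.8 ± 32.6. With oligo-dT capture, the levels of MT-ND6, the rRNAs and the other members also depend on the poly(A) tail of each RNA. Tails were not measured, so these levels do not rank the amounts of RNA in the cell. By default featureCounts, the counting tool named in the submitters' notes, leaves out reads that touch 2 genes, which would weigh most on MT-ATP8 with its 207 bases and MT-ND4L with its 297. Which setting was used is not given in the sources used here.

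In the H2A.X experiment, 3 mRNAs were far lower in WT than in H2A.X KO at both days: MT-ATP8, MT-ND4L and MT-ND5. At D0, MT-ATP8, a small subunit of complex V, was 116.0 and 14.8 CPM in the WT libraries and 272.0, 255.6 and 264.6 CPM in KO. MT-ND4L, a membrane subunit of complex I, was 130.6 and 16.6 CPM in WT and 454.5, 457.1 and 437.9 CPM in KO. MT-ND5, a proton-pumping subunit of complex I, was 740.1 and 152.2 CPM in WT and 2247, 2460.3 and 2473 CPM in KO. Groups did not overlap, KO libraries lay close together, and WT replicate 2 was far below WT replicate 1. At D6, MT-ATP8 was 32.4 and 16.3 CPM in WT and 148.4, 121.9 and 106.3 CPM in KO. MT-ND4L was 37.4 and 40.4 CPM in WT and 303.3, 286.8 and 149.6 CPM in KO at that day. MT-ND5 was 349.4 and 389.7 CPM in WT and 1754, 2037 and 820.9 CPM in KO. WT and KO again did not overlap, and KO replicate 3, the only KO library without the Redo mark, was the KO library nearest to WT for all 3 genes. From the level of a single gene in bulk RNA, fewer cells of a kind, fewer mitochondria and less RNA in each cannot be told apart. The levels of partner genes on the same RNA are given below.

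A gene was called at a Benjamini-Hochberg adjusted p below 0.05 over all genes tested by edgeR's quasi-likelihood test. At D0, 4 members were called in H2A.X KO, where 35.1% of all 13236 genes tested were. Of these, 3 were higher, beside 18.4% of all genes, and 1 was lower, beside 16.7%. The log2 fold change was 2.01 for MT-ATP8 (SE 0.645, adjusted p = 0.0356), 2.61 for MT-ND4L (SE 0.67, adjusted p = 0.0162) and 2.42 for MT-ND5 (SE 0.586, adjusted p = 0.0132). At D6, 9 members were called, where 43.1% of all genes were, and MT-ATP8, MT-ND4L and MT-ND5 were again the 3 that were higher, beside 22.2% of all genes, with log2 fold changes of 2.36, 2.66 and 2.06 (edgeR adjusted p = 0.0176, 0.0116 and 0.017). A further 6 members were called lower, where 20.9% of all genes were. The median over the 13 mRNAs was a log2 fold change of 0.59 at D0, beside 0.01 over all genes tested, and of -0.03 at D6, beside -0.01. The D0 median was 1.40 without WT D0 replicate 1 and 0.08 without WT D0 replicate 2.

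Leaving out 1 WT library changed the calls of members and of all genes. Without WT D0 replicate 2 no member and 0.551% of all genes were called at D0, with MT-ATP8 at 1.19, MT-ND4L at 1.78 and MT-ND5 at 1.69, and without WT D0 replicate 1 there were 11 calls, beside 30.4% of all genes. Without WT D6 replicate 2 no member and 1.10% of all genes were called at D6, with MT-ATP8 at 1.98, MT-ND4L at 2.75 and MT-ND5 at 2.17. Without any 1 of the 3 KO libraries at D0 MT-ATP8 was no longer called, at log2 fold changes of 1.99 to 2.03, and without WT D6 replicate 1 MT-ND4L and MT-ND5 were no longer called, at 2.63 and 2.0. With the libraries of D0 alone, edgeR called 2 members, beside 47.5% of all genes, and MT-ATP8 was not among them (2.0, adjusted p = 0.057). All these values kept their direction.

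**Figure D1:**
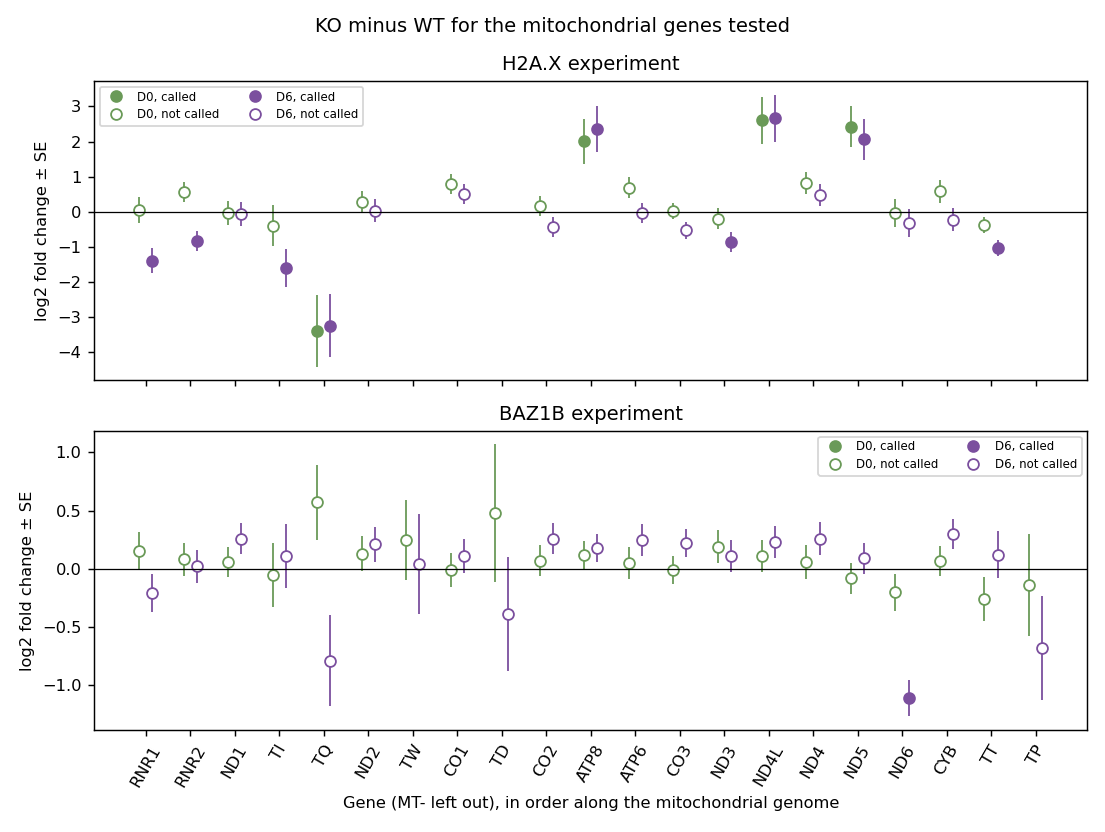
Log2 fold change of KO over WT, with its standard error, for the mitochondrial genes that passed the filter on low counts, in their order along the genome. Filled points were called by edgeR and open points were not. In the H2A.X experiment MT-ATP8, MT-ND4L and MT-ND5 stand at 2.01 or above at both days, and in the BAZ1B experiment only MT-ND6 at D6 was called, at -1.11.

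The partners of MT-ATP8 and MT-ND4L on the same RNA were not called by edgeR with all libraries, the filter on low counts and no replicate block. MT-ATP6, the partner of MT-ATP8 on its RNA and the proton channel subunit of complex V, was 1788 and 767.1 CPM in WT and 2229.7, 1958 and 2017 CPM in H2A.X KO at D0. At D6 it was 1046 and 1067 CPM in WT and 1129, 887.1 and 1099 CPM in KO, with overlap. It was called at neither day, with log2 fold changes of 0.69 and -0.03 (edgeR adjusted p = 0.0878 and 0.95). MT-ND4, a complex I subunit that shares its RNA with MT-ND4L, had log2 fold changes of 0.82 at D0 and 0.48 at D6 and was not called either (adjusted p = 0.0719 and 0.239). At D0 both genes were called by DESeq2, MT-ATP6 at 0.70 (adjusted p = 0.0485) and MT-ND4 at 0.83 (adjusted p = 0.0302). With the replicate number as a block, edgeR called MT-ATP6 at 0.75 and MT-ND4 at 0.93 at D0. With a correction for transcript length and GC content added to the block, both were called at 1.39 (edgeR adjusted p = 0.0193 and 0.0321). EdgeR called both at D0 without the filter on low counts (0.70 and 0.82) and without WT D0 replicate 1 (1.43 and 1.70), and MT-ND4 at D6 without either WT D0 replicate (0.49).

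The ratios of such neighbours within a library were computed after these values were seen and were not tested. Per 100 MT-ATP6 reads, H2A.X WT libraries held 6.49 and 1.93 MT-ATP8 reads at D0 and 3.1 and 1.53 at D6. The KO libraries held 12.2 to 13.1 at D0 and 13.2, 13.7 and 9.67 at D6, the last in KO replicate 3. In the BAZ1B experiment this ratio was 10.7 to 13.9 in all 12 libraries. MT-ND4L reads per 100 MT-ND4 reads were 1.24 to 3.63 in the H2A.X WT libraries, 10.2 to 10.6 in the KO libraries with the Redo mark, 5.83 in KO replicate 3 at D6 and 10.3 to 12 in the BAZ1B experiment. MT-ND5 reads per 100 MT-CYB reads were 20.2 to 39.3 in H2A.X WT, 71.2 in KO replicate 3 at D6, 103.1 to 266.8 in the other KO libraries and 99.1 to 166.0 in the BAZ1B experiment. So the H2A.X KO libraries with the Redo mark resembled both genotypes of the BAZ1B experiment in the first 2 ratios, and the H2A.X WT libraries stood apart.

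**Figure D2:**
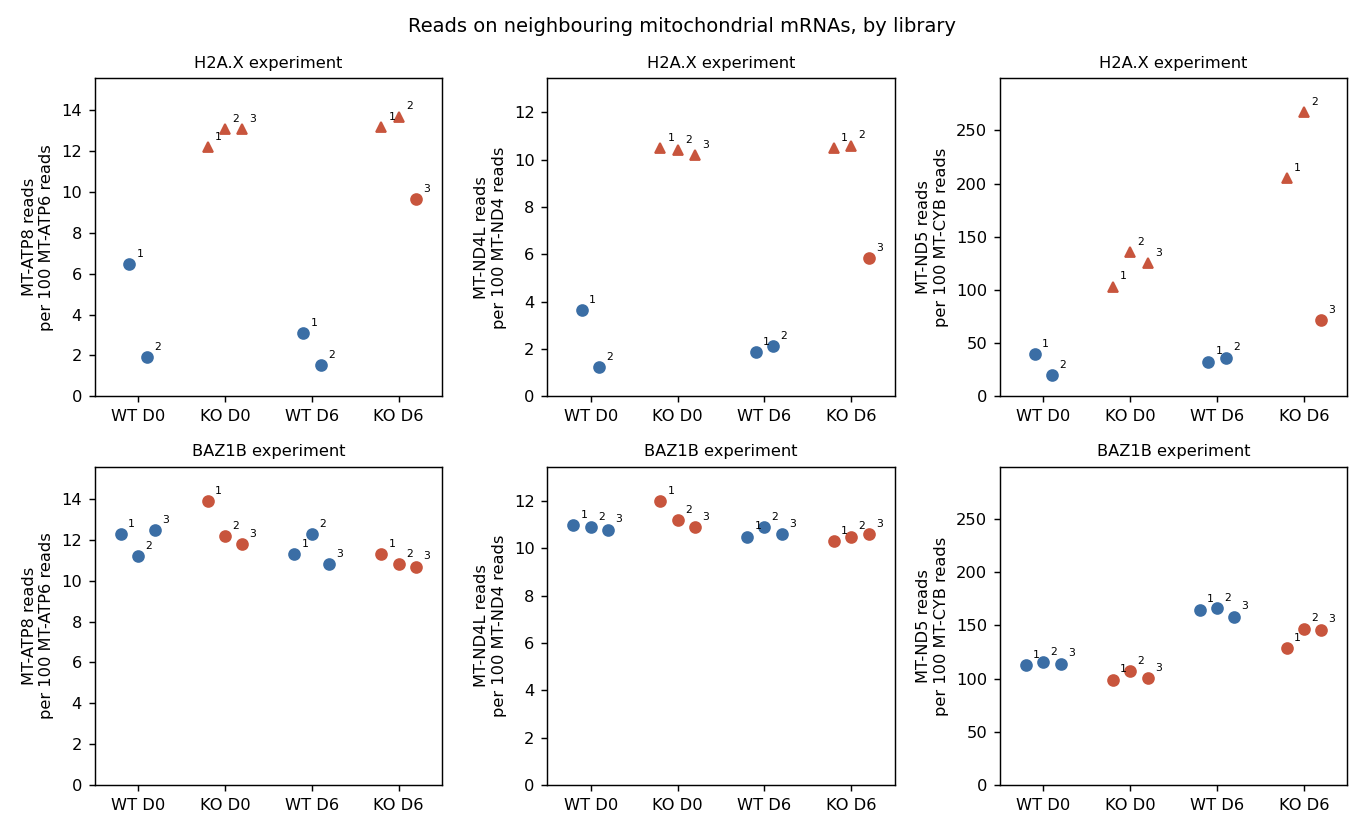
Reads on 1 mitochondrial mRNA per 100 reads on another, by library, for WT in blue and KO in red. Numbers are replicates and triangles are libraries whose column name carries the word Redo. H2A.X WT libraries lie below all others in the 3 ratios, with H2A.X KO replicate 3 at D6 between them and the other KO libraries.

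Transcript length also moved with these groups among nuclear genes. Across 11995 nuclear genes, which share the same libraries, the log2 fold change of H2A.X KO had a rank correlation (Spearman) with transcript length of 0.546 (D0) and 0.603 (D6). The corresponding values in the BAZ1B experiment, over 12383 genes, were -0.029 and 0.0536. With each library corrected for transcript length and GC content, MT-ND4L and MT-ND5 were called at D0 (log2 fold changes of 3.0 and 2.65), and MT-ATP8 was not (2.38, edgeR adjusted p = 0.0602). At D6 the correction left MT-ATP8, MT-ND4L and MT-ND5 called at 3.06, 3.53 and 2.41, and none of the 6 members that were lower. The correction was fitted on nuclear genes, with lengths and GC contents beyond the range of most of them set to the ends of that range. The shortest members can lie outside this range, and their full length is then not corrected for. The part of length in these results was not tested further.

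The rRNAs were lower in H2A.X KO than in WT at D6. MT-RNR1 was 593.2 and 1342 CPM in WT and 371.3, 504.2 and 229.4 CPM in KO. MT-RNR2 was 4803 and 8387 CPM in WT and 3650.3, 4300.2 and 3155 CPM in KO. The groups did not overlap, and WT replicate 2 was far above all others. The log2 fold change was -1.39 for MT-RNR1 (SE 0.358, adjusted p = 0.0121) and -0.83 for MT-RNR2 (SE 0.276, adjusted p = 0.0333), by edgeR. Without WT D6 replicate 2 both lost their call, at -0.66 and -0.35, and so they did after the correction for length and GC content, at -0.44 and -0.40. MT-RNR2 also lost it without KO D6 replicate 1, KO D6 replicate 3, KO D0 replicate 2 or KO D0 replicate 3, at log2 fold changes of -0.84 to -0.70. At D0 the log2 fold changes of KO were 0.06 for MT-RNR1 and 0.56 for MT-RNR2, neither called (edgeR adjusted p = 0.907 and 0.145). EdgeR called MT-RNR2 higher at D0 without the filter on low counts (0.56, adjusted p = 0.0498), and without WT D0 replicate 1 it was at 1.01. RNAs without a poly(A) tail moved with the rRNAs. RN7SL1, the RNA of the signal recognition particle, was 31.2 and 131.1 CPM in WT and 3.19 to 4.87 CPM in KO at D6. The list of 7 such RNAs, of which RN7SK, RN7SL2, RPPH1 and SCARNA2 were at 0 in every library, summed to 42.5 and 165.8 CPM in WT and 6.65 to 14.3 CPM in KO at D6. The D0 libraries of WT had a sum of 11.6 to 14.3 CPM, below the 18.9 to 19.5 CPM of KO. The part of such RNA in the rRNA values was not tested.

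Per 100 mitochondrial mRNA reads, H2A.X WT libraries had 13.4 and 16.8 rRNA reads at D0, and KO libraries had 13.6 to 14.8. The D6 libraries had more, 33.0 and 58.8 for WT and 22.5, 28.6 and 18.6 for KO. The D6 difference of KO minus WT was -22.7 per 100, or -9.78 without WT replicate 2 and -35.6 without WT replicate 1, and an exact permutation test over the libraries gave a two-sided p = 0.1, the smallest that 2 against 3 libraries allow (adjusted p = 0.2 over 66 single-value comparisons). MT-RNR2 reads per MT-RNR1 read were 10.4 and 7.76 in WT and 15.3, 12.3 and 12.1 in KO at D0, and 8.1 and 6.25 in WT and 9.83, 8.53 and 13.8 in KO at D6. The KO libraries were above WT at both days (exact permutation p = 0.1 at D0 and 0.2 at D6).

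**Figure D3:**
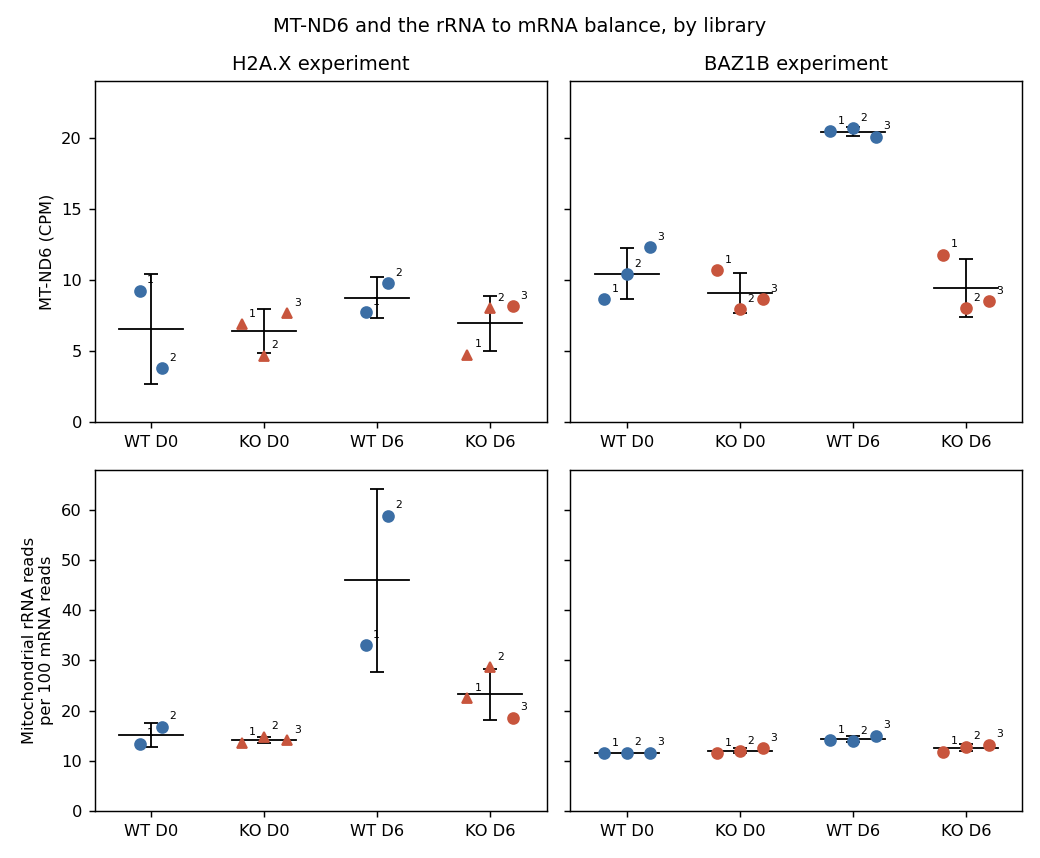
Above, CPM of MT-ND6, the light-strand mRNA, and below, mitochondrial rRNA reads per 100 mitochondrial mRNA reads, by library, with the mean and SD of each group in black. Numbers are replicates and triangles are libraries whose column name carries the word Redo. MT-ND6 is at 20.1 to 20.7 CPM in BAZ1B WT at D6 and at most 12.3 CPM in all other libraries, and the rRNAs reach 58.8 per 100 in WT replicate 2 of the H2A.X experiment at D6.

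Among tRNAs, MT-TQ, the glutamine tRNA, had 7 and 11 reads in H2A.X WT and 2, 1 and 0 reads in KO at D0, and 5 and 19 in WT and 1, 2 and 3 in KO at D6. KO was at 8.54% of WT per effective library size at D0 (exact 95% counting interval 1.61% to 29.2%) and at 11.3% at D6 (3.77% to 28.3%). KO was below WT in every library, and edgeR called the gene lower at both days (adjusted p = 0.0282 and 0.0169), but without WT replicate 2 of the day it did not (adjusted p = 0.2 and 0.332). Without KO D0 replicate 2 or KO D0 replicate 3 the D0 call was also lost, at log2 fold changes of -3.40 and -2.85, and the correction for length and GC content ended both calls, at -2.69 and -2.24. MT-TI, the isoleucine tRNA, had 11 and 24 reads in WT and 8, 9 and 11 reads in KO at D6, a log2 fold change of -1.60 (edgeR adjusted p = 0.0379). This call was lost without any of 7 libraries, with a log2 fold change of -0.48 without WT D6 replicate 2 and of -1.60 to -1.48 without KO D6 replicate 1 or 2, KO D0 replicate 2 or 3 or either WT D0 replicate. It was also lost under DESeq2 (-1.59, adjusted p = 0.0583). MT-TT was 5.59 and 6.11 CPM in WT and 2.4, 3.25 and 2.91 CPM in KO at D6, without overlap, and was called lower at -1.03 (SE 0.237, edgeR adjusted p = 0.00779). MT-TT lost its call without WT D6 replicate 2, at -0.94, and after the correction for length and GC content. Over the alternatives other than leaving out 1 library, its log2 fold change at D6 ranged from -1.14 to -0.27. The 8 light-strand tRNAs together had 21 to 31 reads in WT libraries and 2 to 6 in the KO libraries with the Redo mark, and 16 in KO replicate 3 at D6.

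MT-ND3, a complex I subunit, was called lower in H2A.X KO, as no other mRNA was by edgeR with all libraries and no block. It was 728.7 and 781.7 CPM in WT and 369.4, 275.5 and 607.2 CPM in KO at D6, without overlap, a log2 fold change of -0.86 (SE 0.283, edgeR adjusted p = 0.0332). The call was lost without KO D6 replicate 1, KO D6 replicate 2 or either WT D6 replicate, at -0.88 to -0.63, and the value was -0.10 after the correction for length and GC content. Of the remaining mRNAs, MT-CO1, MT-CO2, MT-CO3, MT-CYB, MT-ND1, MT-ND2 and MT-ND6 had log2 fold changes between -0.53 and 0.79 over both days. EdgeR with all libraries, TMM, the filter and no block called none. DESeq2 called MT-CO1 at D0 (0.80, adjusted p = 0.0197), and so did edgeR with total counts (0.91) or without the filter (0.79). Without the filter MT-CYB was also called at D0 (0.60) and MT-CO1 at D6 (0.56), and MT-CO1 was called at D6 without either WT D0 replicate (0.52). MT-CO3 was called lower at D6 without KO D6 replicate 3 (-0.68, edgeR adjusted p = 0.0394). Without WT D0 replicate 1, MT-CO1, MT-CYB, MT-ND1 and MT-ND2 were called higher at D0, at 0.86 to 1.52.

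The balance between the complexes followed these genes. Complex I genes were 30.9% and 24.8% of mitochondrial mRNA counts in H2A.X WT and 33.7%, 36.2% and 35.3% in KO at D0. The D6 values were 29.0% and 28.3% for WT and 37.7%, 39.8% and 33.5% for KO. Complex IV genes were 54.7% and 62.8% in WT and 50.3%, 49.1% and 49.5% in KO at D0, and 57.8% and 58.6% in WT and 50.4%, 49.6% and 53.6% in KO at D6. At both days WT and KO did not overlap in either share, and each of the 4 differences had an exact two-sided permutation p of 0.1, the smallest possible, or 0.2. The share of complex V genes at D0 was 7.27% and 6.31% for WT, below the 8.06% to 8.59% of KO, and at D6 it was 6.55% to 6.6% for WT, within the 6.02% to 7.16% of KO. Cell type markers moved with the H2A.X groups at D0, and in part at D6. The 13 erythroid markers summed to 24295.6 to 33519.5 CPM in WT and 12298.8 to 16369.7 CPM in KO at D0. At D6 these sums overlapped, at 38231.6 to 64845.4 CPM in WT and 43664.3 to 73069.2 CPM in KO. The 9 mast cell and eosinophil markers, with CLC at 0 in all 4 groups, summed to 103.6 to 139.8 CPM in WT and 212.4 to 428.5 CPM in KO at D0, and to 144.9 to 231.6 CPM and 3.52 to 14.5 CPM at D6. The 7 megakaryocyte markers, with PF4, PPBP and GP1BA at 0 in all 4 groups, summed to 9.06 to 9.67 CPM in WT and 32.8 to 75.7 CPM in KO at D0. They overlapped at D6, at 3.57 to 7.93 CPM in WT and 2.04 to 4.95 CPM in KO. The part of all these markers in the differences was not tested.

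In BAZ1B KO cells at D0, no mitochondrial gene was called by edgeR, where 3.88% of all 13879 genes tested were, 1.25% higher and 2.64% lower. DESeq2 also called 0, and 0 of the 21 members tested had an unadjusted p below 0.05. Log2 fold changes of the 13 mRNAs lay between -0.20 and 0.19, with a median of 0.06 beside 0.0 over all genes. At D6, where 12.8% of all genes were called, only MT-ND6 was among them, and it was lower in KO, beside 5.97% of all genes that were lower and 6.87% that were higher. MT-ND6, a membrane subunit of complex I, was 20.5, 20.7 and 20.1 CPM in WT and 11.8, 8.03 and 8.55 CPM in KO at D6, from 260 to 749 reads per library. WT libraries lay close together and above every KO library. The log2 fold change was -1.11 (SE 0.158, edgeR adjusted p = 0.000621), and it stayed called under each alternative, between -1.30 and -1.01 (adjusted p from 1.68e-19 to 0.0047). At D0, MT-ND6 was 8.68, 10.4 and 12.3 CPM in WT and 10.7, 7.99 and 8.66 CPM in KO, with overlap (edgeR log2 fold change -0.20, adjusted p = 0.61). Some cell type markers also differed by genotype. At D6 the 13 erythroid markers summed to 39113.3 to 44932.5 CPM in WT and 33031.7 to 39009.4 CPM in KO. The 7 megakaryocyte markers summed to 8.35 to 10.4 CPM in WT and 1.42 to 4.83 CPM in KO, while mast cell and eosinophil sums overlapped. At D0 the erythroid sums were higher in KO, at 7766.5 to 8225.8 CPM beside 6604.1 to 7365.4 CPM in WT. The part of these markers in the MT-ND6 difference was not tested.

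The other 12 mRNAs of BAZ1B KO at D6, all on the heavy strand, had log2 fold changes between 0.09 and 0.30 with a median of 0.23, beside 0.0 over all genes, and none was called. Without the filter on low counts, edgeR called 11 members at D6, beside 9.02% of all genes, and 9 of them were higher, beside 4.73%. MT-CYB, which differed most among those 9, was 1566, 1485 and 1605 CPM in WT and 2078, 1602 and 2071 CPM in KO, where KO replicate 2 overlapped with WT (log2 fold change 0.30, edgeR adjusted p = 0.15). Without that library MT-CYB was called, at 0.41 (adjusted p = 0.049). The 8 light-strand tRNAs together had 35, 42 and 32 reads in WT and 21, 12 and 22 in KO at D6, and 25, 42 and 42 in WT and 39, 37 and 39 in KO at D0. Of these, MT-TQ and MT-TP were tested, with log2 fold changes of -0.79 and -0.68 at D6 that were not called (edgeR adjusted p = 0.219 and 0.371). The kit is a stranded one in the study's methods but not in the sample labels, and without strand the reads of MT-ND6 and of light-strand tRNAs cannot be told apart from those of antisense RNA.

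Between D0 and D6 of maturation, mRNAs of the heavy strand fell in the BAZ1B experiment. In WT, 12 members were called, where 68.9% of all genes were. They were 9 of the 12 heavy-strand mRNAs and MT-TT, which were lower, beside 35.4% of all genes, and MT-ND6 and MT-TD, which were higher, beside 33.5%. MT-CYB fell from 3158, 2957 and 2319.6 CPM at D0 to 1566, 1485 and 1605 CPM at D6 in WT, a log2 fold change of -0.86 (SE 0.129, edgeR adjusted p = 5.93e-05). MT-ATP8 fell from 380.2, 317.1 and 276.8 CPM to 194.4, 208.6 and 187.5 CPM (log2 fold change -0.72, adjusted p = 0.000162). In both genes each D6 library lay below each D0 library. MT-ATP6, MT-CO2, MT-CO3, MT-ND4, MT-ND4L, MT-ND3 and MT-ND5 had log2 fold changes between -0.65 and -0.34, and MT-CO1, MT-ND1 and MT-ND2, which were not called, between -0.30 and -0.27. MT-ND5 lost its call under DESeq2 and without any of 5 WT libraries, at -0.35 to -0.26, and MT-ND3 without WT D0 replicate 1, WT D6 replicate 2 or WT D6 replicate 3, at -0.39 to -0.26. The rRNAs had log2 fold changes of 0.12 for MT-RNR1 and -0.20 for MT-RNR2, neither called. Cell type markers moved with the day too. The 13 erythroid markers summed to 6604.1 to 8225.8 CPM at D0 and 33031.7 to 44932.5 CPM at D6 in the BAZ1B experiment, and 9 mast cell and eosinophil markers to 455.2 to 622.8 CPM at D0 and 13.2 to 44 CPM at D6, with CLC at 0 in all groups but KO at D6. Their part in the mitochondrial values was not tested.

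MT-ND6 went the other way in WT of the BAZ1B experiment. It rose by a log2 fold change of 0.96 (SE 0.156, edgeR adjusted p = 0.00011), and each D6 library lay above each D0 library. It rose under all alternatives, at 0.80 to 1.10. MT-TD, the aspartate tRNA, had 7, 3 and 2 reads at D0 and 10, 5 and 11 at D6 (log2 fold change 1.37, adjusted p = 0.0367), with overlap. It lost its call under DESeq2 (1.39, adjusted p = 0.101), under 4 other alternatives (1.11 to 1.36) and without WT D6 replicate 1, WT D0 replicate 2 or WT D0 replicate 3 (1.05 to 1.23).

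**Figure D4:**
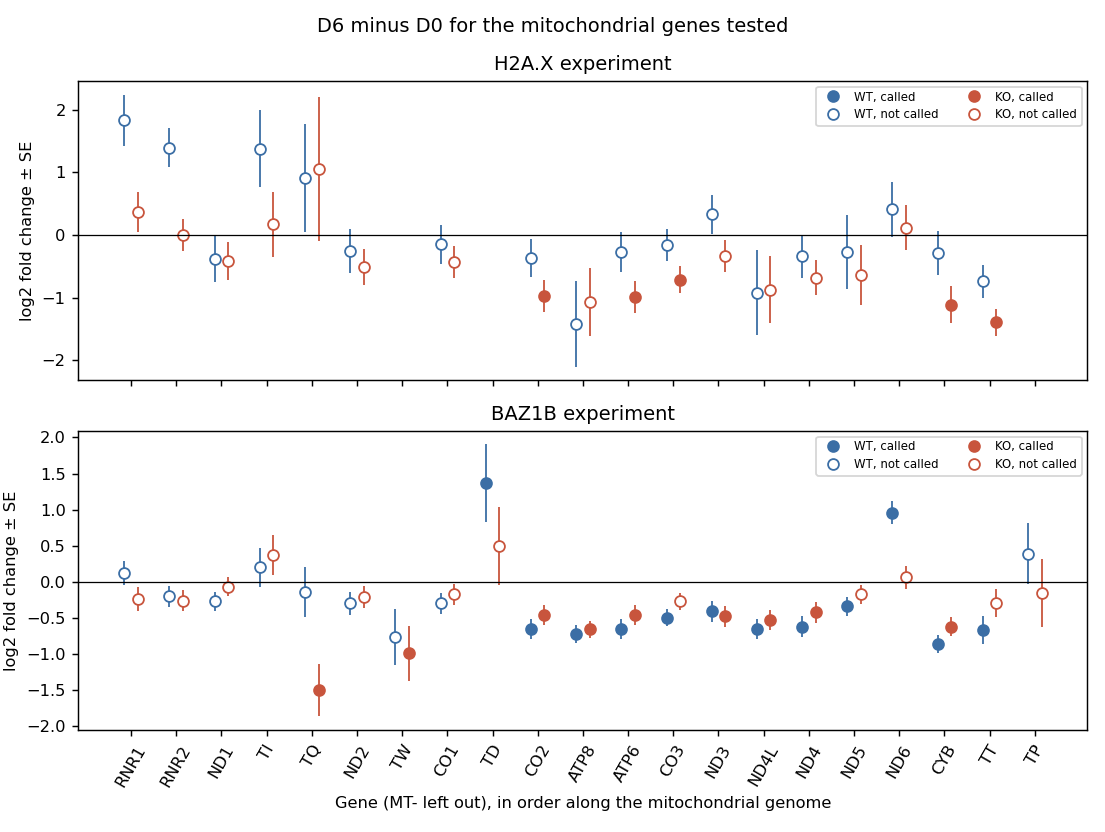
Log2 fold change from D0 to D6, with its standard error, for the mitochondrial genes that passed the filter on low counts, in their order along the genome. Filled points were called by edgeR and open points were not. In the BAZ1B experiment the heavy-strand mRNAs lie below 0 in both genotypes, and MT-ND6 lies at 0.96 in WT and 0.06 in KO.

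In BAZ1B KO, 9 members were called from D0 to D6, where 67.7% of all genes were. All were lower, 7 heavy-strand mRNAs, MT-TQ and MT-TW, beside 34.5% of all genes that were lower and 33.2% that were higher. MT-CYB and MT-ATP8 had log2 fold changes of -0.62 and -0.66 (edgeR adjusted p = 0.000872 and 0.000359), and the heavy-strand mRNAs together a median of -0.44, beside -0.02 over all genes. MT-TQ had 28, 28 and 23 reads at D0 and 10, 6 and 10 reads at D6, without overlap (log2 fold change -1.50, adjusted p = 0.00254). With the subclone as a replicate block, MT-TW was no longer called (-0.95, adjusted p = 0.0577) and MT-CO3 was, at -0.27. Without KO D0 replicate 2, MT-ATP6, MT-ND4 and MT-TW lost their calls, at -0.31, -0.24 and -0.59. MT-ND4 and MT-TW also lost theirs without KO D6 replicate 2, at -0.34 and -0.83, and MT-TW without KO D6 replicate 1, at -0.90, and under DESeq2, at -0.99. MT-ND6 was not called between the days in KO, at 0.06 (SE 0.161, adjusted p = 0.772).

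The difference of the BAZ1B KO effects at D6 and D0 was tested as an interaction. No member was called by edgeR with all libraries, the filter and no block, where 2.47% of all genes were, 1.58% higher and 0.893% lower. In that fit 2 members, MT-ND6 and MT-TQ, had an unadjusted p below 0.05. The difference for MT-ND6 was -0.91 on the log2 scale (SE 0.224, adjusted p = 0.0547), just outside the threshold. With the subclone as a replicate block edgeR called MT-ND6 (-0.93, adjusted p = 0.00429), as it did with the length and GC correction and the block (-0.90, adjusted p = 0.00472). That block also pairs the WT libraries of both days by replicate number. Their deviations at D0 and D6 had correlations over genes of 0.237, -0.03 and 0.172, so this pairing is weak in WT. DESeq2 called this 1 member (-0.91, adjusted p = 0.00333), and edgeR called it without KO D6 replicate 1 (-1.10, adjusted p = 0.0134) or KO D0 replicate 2 (-0.99, adjusted p = 0.0415). Over all its alternatives the adjusted p ranged from 4.39e-06 to 0.147, and the difference from -1.10 to -0.77.

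In the H2A.X experiment, changes with maturation were less even. In WT no member was called by edgeR from D0 to D6, where 265 of all 13236 genes were, 0.839% higher and 1.16% lower, while 4 had an unadjusted p below 0.05 and DESeq2 called 2, MT-RNR1 and MT-RNR2. MT-RNR1 was 308.2 and 237.0 CPM at D0 and 593.2 and 1342 CPM at D6 in WT and did not pass the test (log2 fold change 1.83, edgeR adjusted p = 0.0533), and when KO D6 replicate 2, KO D6 replicate 3 or WT D6 replicate 1 was left out, MT-RNR1 was called at 1.83, 1.81 and 2.28, together with MT-RNR2 at 1.39, 1.37 and 1.72. Deviations of the WT libraries from the mean of their day had a correlation of 0.595 over genes between D0 and D6. With 2 libraries a day these deviations mirror each other, so both replicate numbers give this 1 value. With the number as a replicate block edgeR called MT-RNR1 (1.72, adjusted p = 0.0314) and MT-RNR2 (1.39, adjusted p = 0.034), beside 8.51% of all genes. In H2A.X KO, 5 members were called, where 30.9% of all genes were. These were MT-CYB, MT-ATP6, MT-CO2, MT-CO3 and MT-TT, all lower, beside 16.1% of all genes that were lower and 14.8% that were higher. MT-CYB fell from 2179.5, 1818 and 1976 CPM to 854.7, 763.4 and 1153 CPM in KO, a log2 fold change of -1.11 (SE 0.29, edgeR adjusted p = 0.0165), without overlap. MT-TT fell from 7.17, 8.45 and 6.83 CPM to 2.4, 3.25 and 2.91 CPM (log2 fold change -1.39, adjusted p = 0.00124), also without overlap.

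With the subclone as a replicate block there were 7 calls in H2A.X KO, beside 38.5% of all genes, the additional ones being MT-ATP8 at -1.09 and MT-ND4 at -0.68. Without KO D6 replicate 2 there was 1 call, beside 21.5% of all genes, and without KO D0 replicate 1 there were 2, beside 21.1%, and MT-CYB lost its call in both, at -0.99 and -1.04. MT-CO2 was not called without KO D6 replicate 2 (-0.81), MT-ATP6 without that library or KO D0 replicate 1 (-0.89 and -0.94), and MT-CO3 without any of 5 KO libraries (-0.76 to -0.56). Without either WT library of D0 there were 10 calls, beside 29.7% of all genes, as there were with the KO libraries alone, beside 31.5%. After the correction for length and GC content 3 remained, beside 36.7%, MT-CYB, MT-CO2 and MT-TT. The difference of the H2A.X KO effects at D6 and D0 was called for no member by edgeR, where 1.34% of all genes were, 0.302% higher and 1.04% lower, with 2 at an unadjusted p below 0.05 and 1 call by DESeq2, MT-RNR2. A stricter cutoff, an adjusted p under 0.001 with a log2 change beyond 1.5, was also counted, although the study names no adjustment for the p of its own stricter definition. In the edgeR fit with all libraries, TMM, the filter and no correction or block, no member reached it in any of the 10 comparisons. Under DESeq2, MT-ND5 reached it in H2A.X KO at D0 (2.43, adjusted p = 3.38e-05) and D6 (2.09, adjusted p = 0.00026), and MT-RNR1 from D0 to D6 in H2A.X WT (1.82, adjusted p = 0.000622). Without the filter, MT-ATP8, MT-ND4L and MT-ND5 reached it at both days and MT-RNR1 in the same WT comparison (1.76, edgeR adjusted p = 1.01e-11). MT-TT reached it from D0 to D6 in H2A.X KO with total counts (-1.61) and with the length and GC correction, with or without the block (-1.57 in both). Of all genes, edgeR had 0.166% and 0.151% there for H2A.X KO at D0 and D6, 0.00% and 3.22% for the days in WT and KO and 0.00% for the interaction. In the BAZ1B experiment these were 0.360%, 0.749%, 11.7%, 11.5% and 0.0288%.

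As a share of each library, the 37 genes took up less at D6 than at D0 in the BAZ1B experiment. WT libraries had 4.62%, 4.27% and 3.41% of their counts on these genes at D0 and 2.66%, 2.61% and 2.75% at D6. KO libraries had 3.51%, 4.97% and 4.16% at D0 and 3.09%, 2.66% and 3.26% at D6. Each D6 library lay below each D0 library. The difference of -1.32 percentage points had p = 0.005 by an exact permutation of days within genotype, the smallest this design allows (adjusted p = 0.055). This permutation treated the D0 and D6 libraries of a subclone as independent. KO and WT overlapped at both days (exact permutation p = 0.9 and 0.3). The mRNAs made up most of this difference, with -1.21 percentage points, and the rRNAs had -0.103.

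In the H2A.X experiment the share was 3.19% and 1.36% in WT and 3.72%, 3.51% and 3.60% in KO at D0. At D6 it was 2.07% and 2.17% in WT and 2.14%, 1.90% and 2.23% in KO. WT replicate 2 at D0 had the lowest share of all 22 libraries, and KO and WT overlapped at D6. The difference of KO minus WT was 1.34 percentage points at D0 (exact permutation p = 0.1, the smallest possible), or 0.422 without WT replicate 2 and 2.26 without WT replicate 1, and -0.0261 at D6 (p = 0.9), and that of D6 minus D0 was -0.975 (p = 0.05, adjusted p = 0.194). Globin genes took 0.775% to 4.41% of the counts of these libraries and 0.215% to 2.49% in the BAZ1B experiment, more at D6 than at D0 in each subclone. With the globin genes left out, the same members were called in all 10 comparisons. Within the mRNAs of the BAZ1B experiment, the share of MT-CYB differed by -1.7 percentage points at D6 from D0, and that of complex IV was 47.3% to 49.1% at D0 and 49.4% to 51.2% at D6 (exact permutation p = 0.005 each, adjusted p = 0.055).

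**Figure D5:**
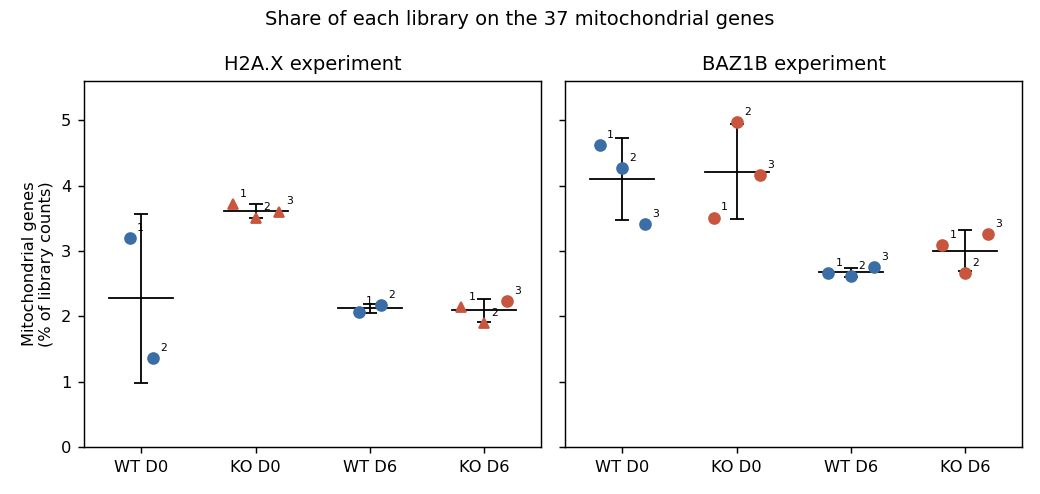
Percent of each library's counts on the 37 mitochondrial genes, by library, with the mean and SD of each group in black. Numbers are replicates and triangles are libraries whose column name carries the word Redo. In the BAZ1B experiment the 6 libraries at D6 lie between 2.61% and 3.26%, below the 6 at D0, and WT replicate 2 of the H2A.X experiment at D0 is lowest at 1.36%.

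Copies of mitochondrial sequence in the nuclear genome can take up or give off reads. Both tables list 407 such copies, and 98.5% to 98.8% of their reads fell on MTATP6P1, MTND2P28 and MTND4P12. They amounted to 0.674 to 1.8 reads per 100 member reads in the H2A.X experiment and 1.61 to 1.81 in the BAZ1B experiment, and adding them to the genes they copy reversed no difference in the shares and ratios. Calls of single genes were not recomputed with them.

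A list of 76 nuclear genes that copy, transcribe, cut, stabilize, modify or degrade mitochondrial nucleic acids had 74 tested genes in one experiment (H2A.X) and 75 in the other. In H2A.X KO at D0, 4 were called higher, beside 18.4% of all genes, and 20 lower, beside 16.7%. At D6, 5 were higher, beside 22.2%, and 26 lower, beside 20.9%. Their medians were log2 fold changes of -0.23 and -0.26, beside 0.01 and -0.01 over all genes. SLIRP, which with LRPPRC protects mitochondrial mRNAs from decay, was 126.6 CPM ± 56.0 in WT (SD, n = 2) and 50.3 CPM ± 3.17 in KO (SD, n = 3) at D0, a log2 fold change of -1.33 (edgeR adjusted p = 0.0118), and it was also lower at D6 (-1.47, adjusted p = 0.00592). LRPPRC itself had log2 fold changes of 0.31 at D0 (adjusted p = 0.113) and 0.43 at D6 (adjusted p = 0.0338). At D6 the polymerase POLRMT was lower in KO, at 46.4 CPM ± 11.1 (n = 3) beside 91.3 CPM ± 4.92 (n = 2) in WT (edgeR log2 fold change -0.98, adjusted p = 0.00459). TFAM, which packages mitochondrial DNA and starts its transcription, was higher at D6 (0.57, adjusted p = 0.0108), and TRMT10C, a subunit of the RNase P that cuts at tRNAs, was lower (-0.62, adjusted p = 0.049). ENDOG, a mitochondrial nuclease, was also lower at D6 (-1.65, adjusted p = 0.00354). These values carry no correction for transcript length, with which log2 fold changes of nuclear genes had rank correlations of 0.546 (D0) and 0.603 (D6). Calls over all genes in these comparisons also depended on single WT libraries. The part of either in this list was not tested.

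In BAZ1B KO at D0, edgeR called 0 of these 75 genes higher, beside 1.25% of all genes, and 2 lower, beside 2.64%, which were TRUB2 and NSUN4 at log2 fold changes of -0.22 and -0.21. At D6, 4 were called higher, beside 6.87%, and 1 lower, beside 5.97%. MTERF2, a mitochondrial transcription termination factor family member, was 64.7 CPM ± 10.7 in KO and 45.8 CPM ± 0.469 in WT at D6 (n = 3 each, edgeR log2 fold change 0.50, adjusted p = 0.00383). POLRMT, TFAM, TFB2M, TEFM, LRPPRC, SLIRP, MTPAP, PNPT1, SUPV3L1, ELAC2, TRMT10C and GRSF1 were called at neither day. From D0 to D6 in WT, 36 of the 75 were called lower, beside 35.4% of all genes, and 14 higher, beside 33.5%. In KO, 31 were lower, beside 34.5%, and 17 higher, beside 33.2%. TRMT10C was lower in both genotypes (log2 fold change -0.68 in each), as were TFAM (-0.43 and -0.37), POLRMT (-0.53 and -0.36), TFB2M (-0.33 and -0.22) and GRSF1, an RNA-binding protein of mitochondrial RNA granules (-0.39 and -0.30). REXO2, an exonuclease that clears short RNA fragments in mitochondria, rose in both, at 0.99 and 1.24 (edgeR adjusted p = 1.98e-09 and 3.56e-10). The coactivator PPARGC1A did not pass the filter in either experiment, and its relative PPARGC1B fell at -1.42 in WT and -1.15 in KO.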

How the data were processed

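Each experiment has 1 table of counts, deposited by the authors as whole reads per gene without normalization. Per the labels and the study's methods, oligo-dT RNA was read and mapped with STAR 2.7.0f to hg38 with GENCODE 31, and the submitters' notes name featureCounts of Subread 1.6.4; its strand and multi-mapping settings are not given in the sources used here. Here, edgeR 4.0.16 in R 4.3.3 filtered genes by filterByExpr (minimum count 10, minimum total 15), scaled libraries by TMM and fitted, for each experiment, quasi-likelihood models whose coefficients were its 4 groups, adjusting p-values over all genes tested. Biological coefficients of variation were 0.239 (H2A.X) and 0.0865 (BAZ1B). Standard errors were taken from the F statistic. The 11 shares and ratios were compared by exact two-sided permutation tests in Python 3.11.15, adjusted over 66 comparisons. For D6 against D0 these tests permuted days within a genotype and did not pair the libraries of a subclone. Gene positions came from GENCODE 44 on GRCh38. Alternatives were DESeq2 1.42.0, other scalings and filters, a length and GC correction, a replicate block and leaving out each library. Subclones deviated together at D0 and D6 in KO (correlations over genes of 0.289 to 0.562 for H2A.X and 0.107 to 0.505 for BAZ1B), so that the number pairs these libraries. No 2 libraries of a group agreed within sampling noise. The fit was tested on simulated data. The genes named were the 13 mRNAs, both rRNAs, the tRNAs tested, 13 nuclear genes and up to 2 called nuclear genes per direction and comparison. Not all of these nuclear genes are given in each comparison. For H2A.X KO, values of TFB2M, TEFM, MTPAP, PNPT1, SUPV3L1, ELAC2 and GRSF1 are not given. Light-strand tRNA sums, neighbour ratios and RN7SL1 were chosen after their values were seen. Members, lists and tests were chosen with earlier results of these data known.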

Additional observations from a re-analysis of the deposited data

How the results depend on the processing

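Calls of members are given here beside the percentage of all genes called in the same fit. For H2A.X KO against WT at D0 (4 calls, 35.1%), there were 7 under DESeq2 (39.5%), 7 with the replicate block (41.5%), 7 with the length and GC correction and the block (26.4%), 10 with no filter on low counts (19.4%), 2 with the correction alone (20.6%) and 2 with the libraries of D0 alone (47.5%). At D6 (9 calls, 43.1%) the correction gave 3 (21.9%), with the block 4 (28.8%), and the libraries of D6 alone 4 (30.1%). From D0 to D6 in WT (0 calls), DESeq2 gave 2 (8.06%), the block 2 (8.51%), no filter 4 (4.98%), upper-quartile factors 1 (1.90%), the correction with the block 1 (6.96%) and the WT libraries alone 1 (4.18%). In KO (5 calls, 30.9%), no filter gave 10 (17.8%), the KO libraries alone 10 (31.5%) and the correction 3 (36.7%). The interaction (0 calls, 1.34%) gave 1 under DESeq2 (5.14%) and 2 without the filter (3.95%). In the BAZ1B experiment, no filter gave 1 call at D0 (4.42%), 11 at D6 (9.02%) and 14 from D0 to D6 in KO (35.7%), where total counts gave 16 (69.2%). The interaction (0 calls, 2.47%) gave 1 call, MT-ND6, under DESeq2 (5.04%), the block (5.17%) and the correction with the block (5.47%), and 4 calls without the filter (3.63%). The cause was not tested.

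Leaving out 1 library gave 0 to 11 calls for H2A.X KO at D0 (0.551% to 42.8% of all genes), 0 to 10 at D6 (1.1% to 50.4%), 0 to 2 for the days in WT (0.00715% to 4.96%) and 1 to 10 in KO (20.2% to 36.9%). It gave 1 to 2 calls for BAZ1B KO at D6 (7.88% to 17.3%), 9 to 15 for the days in WT (63.4% to 71.2%), 6 to 13 in KO (62.7% to 67.1%) and 0 to 1 for the interaction (0.844% to 5.41%). Without 1 library the median of the 13 mRNAs ranged from -0.80 to 0.57 for the days in H2A.X WT (-0.27 with all) and from -1.14 to 0.21 for the H2A.X interaction (-0.34 with all), with these extremes when a WT library of D0 was left out, and from -0.09 to 0.19 for BAZ1B KO at D0. Values of single genes were counted only for members called with all libraries and for MT-ND6 in the BAZ1B interaction. Of these, 393 kept direction and side of the threshold, 60 lost their call, 2 gained one and none changed sign. Members not called with all libraries are outside this count, and some gained calls or changed sign. MT-ND1 in H2A.X KO at D0 had a log2 fold change of -0.03 with all libraries and 0.86 without WT D0 replicate 1. Total counts moved the median log2 fold change of all genes from D0 to D6 to -0.18 in WT and -0.20 in KO of the BAZ1B experiment and to -0.17 and -0.20 in the H2A.X experiment, and for H2A.X KO to 0.17 at D0 and 0.11 at D6.

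With all libraries, no difference in a share or ratio passed the threshold, the lowest adjusted p of the exact permutation tests being 0.055. KO against WT could reach no unadjusted p below 0.1 in these tests. Some small differences in shares and ratios turned in sign. With counts divided by gene length, the complex IV share in H2A.X from D0 to D6 was -0.316, and with globins left out the rRNA share of BAZ1B KO at D6 was -0.00153. Leaving out 1 library gave -0.0966 to 0.0706 percentage points for the share of all 37 genes (H2A.X KO at D6) and -0.264 to 0.466 (BAZ1B KO at D0), and -0.252 to 0.395 for the mRNA share, -0.012 to 0.0714 for the rRNA share, -5.29e-05 to 2.06e-05 for the tRNA share and -1.37 to 0.167 for MT-RNR2 per MT-RNR1 (all BAZ1B KO at D0). The rRNA share of BAZ1B KO at D6 gave -0.0214 to 0.0176, and rRNA per mRNA in H2A.X KO at D0 -2.58 to 0.789. Among shares of the mRNA, complex I gave -0.343 to 2.83 (H2A.X, D0 to D6), -0.43 to 0.5 (BAZ1B KO at D0) and -0.294 to 0.241 (at D6), complex IV -0.44 to 3.1 (H2A.X, D0 to D6), complex V -0.259 to 0.311 (H2A.X KO at D6), MT-CYB -0.139 to 0.959 (H2A.X KO at D0) and MT-ND6 -0.00946 to 0.00144 (BAZ1B KO at D0).

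KO and WT libraries shared replicate numbers without deviating together in every pair (correlations of -0.151 to 0.243 in the BAZ1B experiment), and the 2 numbers shared in the H2A.X experiment had 0.118 to 0.237, so the block there joins libraries that share only a number. For the H2A.X KO comparisons with WT the block also called MT-CO1, MT-ATP6 and MT-ND4 at D0 (0.88, 0.75 and 0.93) and MT-CO3 at D6 (-0.64, adjusted p = 0.0334), where MT-RNR2 lost its call. For the days in KO, where the numbers pair, and in H2A.X WT, the block changed the calls given with those results. Depth limited the tRNAs most, with at most 251 reads for all 22 in any library.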
